A study of Mus musculus with 6 samples.

Results

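The miRNAs miR-137, miR-138 and miR-129 were followed in the RISC of the mouse brain through 7 mature forms, which are mmu-miR-137-3p, mmu-miR-138-5p, mmu-miR-138-1-3p, mmu-miR-138-2-3p, mmu-miR-129-5p, mmu-miR-129-1-3p and mmu-miR-129-2-3p, written below without the species prefix. They were chosen by name, as every unique sequence that the authors' table assigned to 1 of these names. All 7 were found, among 782 miRNA names with a value above 0. They comprised 419 unique sequences with a value above 0, of 65087 in the table, and 257 of these 419 passed a filter on the mean of at least 1 RPM, the unit of the deposited values, which scales every library to the same number of reads.

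Argonaute (Ago) proteins with their short RNAs were pulled down by a peptide derived from GW182, and the RNAs were sequenced (Ago-RP-Seq) in 6 brain samples, 3 from WT and 3 from Tau tg mice. All mice were males of 3 months on the C57BL/6J background. The Tau tg mice expressed the human fragment tau45-230 of tau, a microtubule-binding protein that aggregates in Alzheimer's disease, under the Thy 1.2 promoter, which is active mainly in neurons, and the WT mice served as controls. The transgene itself was not measured here, so the genotypes rest on the labels. By the protocol the tissue was cortex with hippocampus, whereas the source label gives hippocampus alone. The study asked whether RISC-bound short RNAs (R-sRNAs) in such brains carry more toxic seeds. The comparison here is Tau tg against WT for these 7 forms.

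After the removal of rare and artificial reads, the libraries kept between 998248 reads (WT 3) and 6879551 reads (Tau tg 1). The kept values summed to 915719 to 960279 RPM in WT and 963910 to 978886 RPM in Tau tg, without overlap. Of the summed values, 82.7% to 92.4% came from miRNAs. The neuronal miRNAs miR-124-3p and miR-128-3p together reached 104500 to 111118 RPM in WT and 82745 to 104335 RPM in Tau tg. These sums did not overlap, by 104335 against 104500 RPM, beside 9.53% of miRNAs above 0 in all libraries. Singly, both miRNAs overlapped between the groups and went opposite ways. The means in WT and Tau tg were 77313 and 60257 RPM for miR-124-3p, and 29450 and 33262 RPM for miR-128-3p. All markers of 6 other cell types were above 0 in all 6 libraries. An epithelium-like list (miR-200a-3p, miR-200b-3p and miR-429-3p) summed to 1621 to 6466 RPM in WT and 1118 to 1386 RPM in Tau tg, also without overlap, and the choroid plexus miRNA miR-204-5p ranged from 1788 to 8110 RPM. The part of neurons and of these other cells in the results on the 7 forms was not tested. Values of the epithelium-like list are given again beside miR-129-2-3p. In bulk tissue, fewer cells of a type and less RNA per cell cannot be told apart.

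A miRNA hairpin is cut by Drosha and Dicer into a duplex, and 1 strand, from the 5p or the 3p arm, is kept by Ago. The bases at positions 2 to 8 of that strand, the seed, pair with target mRNAs. All 3 miRNAs are enriched in neurons. miR-137 is known for its role in neuronal differentiation and synaptic vesicle release and for its location at a schizophrenia risk locus, miR-138-5p for restraining dendritic spine growth, and miR-129-5p for repressing the potassium channel Kv1.1 at dendrites. The mature sequences decide which mRNAs and which toxic or nontoxic 6mer seed each form carries, so they are shown first. Sequences are from RefSeq on GRCm38.p6, given 5′ to 3′ with seed bases 2 to 8 in capitals.
miR-137-3p: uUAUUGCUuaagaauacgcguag
miR-138-5p: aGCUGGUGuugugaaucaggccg
miR-138-1-3p: cGGCUACUucacaacaccaggg
miR-138-2-3p: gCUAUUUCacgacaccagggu
miR-129-5p: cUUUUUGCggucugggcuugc
miR-129-2-3p: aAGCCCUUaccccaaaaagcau
For miR-129-1-3p the most abundant deposited read is shown in place of a mature entry.
miR-129-1-3p: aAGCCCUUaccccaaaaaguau

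The seeds separated the arms. miR-129-1-3p and miR-129-2-3p carried the same seed and differed by the single substitution U20C (positions counted from 1 at the 5′ end, miR-129-1-3p first). The 3p arms of miR-138 differed at 3 positions between their most abundant reads, C5U, A11G and C21U (miR-138-1-3p first), of which the first lies inside the seed. No 5p form shared a seed with a 3p form.

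The hairpins below give rise to these forms. Mir137 lies at chr3:118433857-118433929 on the plus strand, in an exon of the processed transcript Gm26871. Mir138-1 lies at chr9:122682876-122682974 on the plus strand, in an exon of the transcribed pseudogene Gm47135. Mir138-2 lies at chr8:94324311-94324381 on the plus strand, in an exon of the lincRNA C78859. Mir129-1 lies at chr6:29022619-29022691 on the plus strand, in an exon of the lincRNA Gm3294. Mir129-2 lies at chr2:94241364-94241453 on the minus strand, inside the lincRNA gene Mir670hg but in none of its exons, with Mir129b annotated on the opposite strand. The same miR-138-5p is made by both Mir138 hairpins and the same miR-129-5p by both Mir129 hairpins, so only the 3p arms and the ends of some 5p reads tell the loci apart. The Mir138 hairpins are shown for this reason, with the RefSeq mature parts in capitals.
Mir138-1: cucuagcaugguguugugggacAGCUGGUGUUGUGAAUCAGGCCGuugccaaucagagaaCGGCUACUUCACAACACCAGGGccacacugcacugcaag
Mir138-2: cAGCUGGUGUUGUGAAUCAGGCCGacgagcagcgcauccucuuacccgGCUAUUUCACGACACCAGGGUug

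None of the 7 forms differed detectably between Tau tg and WT brains. miR-138-5p was the most abundant, at a mean of 9393 RPM, rank 27 of all miRNAs, and the miR-138 3p arms were the least abundant. Of the 7 forms, 0 passed an unadjusted p under 0.05 in limma, a linear model that pools the spread across all miRNAs, beside 3.63% of the 689 miRNAs tested (25 miRNAs) and 0.0% after Benjamini-Hochberg adjustment. In 0 of the 7 the 2 groups of libraries were free of overlap, beside 9.53% of the 472 miRNAs above 0 in all libraries.

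miR-138-5p measured 8746, 10533 and 7260 RPM in WT 1, WT 2 and WT 3, and 12043, 6556 and 11221 RPM in Tau tg 1, Tau tg 2 and Tau tg 3. Tau tg 1 and Tau tg 3 were thus above every WT library and Tau tg 2 was below them all. The log2 fold change was 0.14 (SE 0.33, limma adjusted p = 0.954), with a 95% confidence interval from a 0.677-fold to a 1.78-fold level.

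miR-137-3p was the second most abundant form, at a mean of 1770 RPM and rank 69. It measured 1573, 1827 and 1415 RPM in WT 1 to WT 3, and 2167, 1233 and 2405 RPM in Tau tg 1 to Tau tg 3. As for miR-138-5p, Tau tg 1 and Tau tg 3 were the highest of all libraries and Tau tg 2 was the lowest. Its log2 fold change was 0.22 (SE 0.33, limma adjusted p = 0.911), with an interval from 0.714-fold to 1.90-fold. Leaving out 1 library at a time moved it from 0.03 (without Tau tg 3) and 0.11 (without Tau tg 1) to 0.52 (without Tau tg 2, limma unadjusted p = 0.0450), and in none of these fits did a form pass after adjustment. The 5p arm of miR-137, which is not among the 7 forms, was at 15.1 to 66.0 RPM, and the 3p arm held 95.5% to 98.8% of the reads of both arms.

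miR-129-2-3p was the leading miR-129 form, at a mean of 1464 RPM and rank 83. It measured 1271, 1252 and 2147 RPM in WT 1 to WT 3, and 1095, 1158 and 1858 RPM in Tau tg 1 to Tau tg 3. WT 3 and Tau tg 3 stood above the other 4 libraries, so the groups overlapped. The log2 fold change was -0.18 (SE 0.34, limma adjusted p = 0.942), with an interval from 0.532-fold to 1.47-fold. In the epithelium-like list WT 3 was the highest library, at 6466 RPM, and Tau tg 3 the lowest, at 1118 RPM. A link of such cells to miR-129-2-3p was not tested.

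miR-129-5p measured 857, 903 and 822 RPM in WT 1 to WT 3, and 792, 1275 and 707 RPM in Tau tg 1 to Tau tg 3. Tau tg 2 was the highest library and Tau tg 3 the lowest, with the WT libraries close together between them. The log2 fold change was 0.05 (SE 0.34, limma adjusted p = 0.976), with an interval from 0.633-fold to 1.70-fold. miR-129-1-3p measured 604, 871 and 551 RPM in WT 1 to WT 3, and 735, 313 and 859 RPM in Tau tg 1 to Tau tg 3. Here Tau tg 2, the highest library for the 5p arm, was the lowest. The log2 fold change was -0.18 (SE 0.41, limma adjusted p = 0.954), with an interval from 0.483-fold to 1.61-fold.

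The 3p arms of miR-138 were at a mean of 218 RPM from Mir138-1 and 157 RPM from Mir138-2. miR-138-1-3p measured 344, 178 and 150 RPM in WT 1 to WT 3, and 307, 243 and 90.4 RPM in Tau tg 1 to Tau tg 3. WT 1 and Tau tg 1 were the highest, and the log2 fold change was -0.15 (SE 0.52, limma adjusted p = 0.966), with an interval from 0.419-fold to 1.95-fold. miR-138-2-3p measured 192, 98.9 and 109 RPM in WT 1 to WT 3, and 163, 212 and 166 RPM in Tau tg 1 to Tau tg 3. WT 2 and WT 3 were below every Tau tg library, and WT 1 lay among them. Its log2 fold change of 0.49 was the furthest from 0 of the 7 (SE 0.47, limma adjusted p = 0.896), with an interval from 0.702-fold to 2.80-fold. Leaving out 1 library moved it between 0.30 (without WT 2) and 0.78 (without WT 1, limma unadjusted p = 0.0458).

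**Figure D1:**
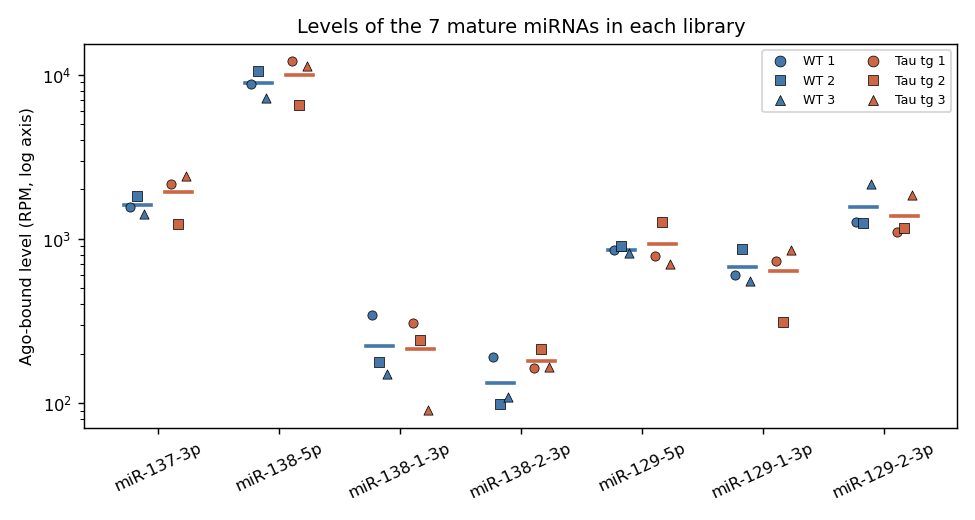
Levels of the 7 forms in RPM on a log axis, with 1 point for each library (WT blue, Tau tg orange, the shape gives the replicate number) and a bar at the group mean. The groups overlap for all 7 forms, and Tau tg 2 is the lowest point for miR-137-3p, miR-138-5p and miR-129-1-3p but the highest for miR-129-5p and miR-138-2-3p.

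Fold changes are on the log2(RPM + 1) scale. Across the 689 miRNAs the median log2 fold change was 0.25, and across the 7 forms it was 0.05, with 4 above 0 and 3 below 0. Relative to that median, miR-138-2-3p stood at 0.24 and the other 6 forms at -0.03 (miR-137-3p) to -0.43 (miR-129-1-3p). Under median-of-ratios scaling the median of all miRNAs was 0.09, and miR-138-5p and miR-129-5p changed sign, to -0.03 and -0.11. With 3 mice per group, the data leave any difference inside a form's own interval possible, and every interval included 0. The intervals were widest for miR-138-1-3p and miR-138-2-3p, the least abundant forms.

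**Figure D2:**
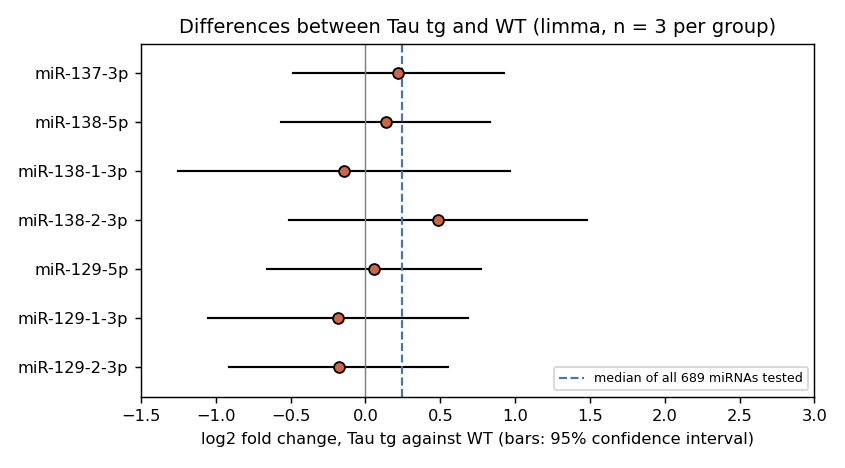
Log2 fold change of each form, Tau tg against WT (points), with its 95% confidence interval (bars, limma, n = 3 per group). The dashed line marks the median of all 689 miRNAs tested, 0.25, and every interval includes 0.

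The order of the levels was miR-138-5p, miR-137-3p, miR-129-2-3p, miR-129-5p, miR-129-1-3p, miR-138-1-3p and miR-138-2-3p. By ranges over the 6 libraries, only miR-138-5p was set apart from its neighbour, since its lowest library (6556 RPM) exceeded the highest library of miR-137-3p (2405 RPM). The other neighbours in this order overlapped in these ranges. Within each library miR-129-1-3p was also above miR-138-1-3p, most narrowly in Tau tg 2 (313 against 243 RPM), while the remaining neighbours changed places in some library. RPM counts whole reads, so no length enters these levels. Each form was counted with at least 119 reads per library, the fewest for miR-138-2-3p, and at most 84639 reads, for miR-138-5p in Tau tg 1.

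Among the 7 forms, the levels of miR-137-3p and miR-138-5p ran most closely together over the 6 libraries (Pearson r = 0.95, Spearman rho = 0.94 on log2 levels). Both also ran with miR-129-1-3p (r = 0.86 and 0.89). In contrast, miR-129-5p ran against miR-129-1-3p (r = -0.84, rho = -0.37) and miR-137-3p (r = -0.79, rho = -0.77). For miR-129-5p and miR-129-1-3p, Tau tg 2 was the extreme library of both (1275 and 313 RPM), and r without it was not computed. The arms of miR-138 did not run together, with r = -0.13 for miR-138-5p and miR-138-1-3p, and r = -0.18 for miR-138-5p and miR-138-2-3p. These correlations describe 6 libraries that differ in depth and share their scaling.

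Outside the 7 forms, the closest pattern among 269 miRNAs with a mean of at least 100 RPM was that of miR-29a-5p for miR-137-3p (r = 0.91), miR-330-5p for miR-138-5p (r = 0.93) and miR-676-3p for miR-138-1-3p (r = 0.95). For miR-138-2-3p it was miR-218-5p (r = 0.99), for miR-129-5p miR-23a-3p (r = 0.93), for miR-129-1-3p miR-153-5p (r = 0.97) and for miR-129-2-3p miR-31-3p (r = 0.95). miR-708-5p was among the 3 closest patterns of both miR-138-5p (r = 0.93) and miR-129-1-3p (r = 0.95), and the epithelial miRNA miR-141-3p was also among the 3 closest to miR-129-2-3p (r = 0.89). All these r are over 6 libraries and were picked as the highest of 269, and how high such a pick runs among unrelated miRNAs was not tested. By rank, miR-31-3p (rho = 0.66) and miR-23a-3p (rho = 0.77) were less close, and the other named pairs had rho of 0.83 to 1.

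The choice of arm differed between the families and did not differ detectably between the groups. miR-138 was almost entirely 5p, whereas about 3 in 10 miR-129 reads were 5p. The 5p arm held 94.2%, 97.4% and 96.6% of miR-138 reads in WT 1 to WT 3, and 96.2%, 93.5% and 97.8% in Tau tg 1 to Tau tg 3. The group means of 96.1% ± 1.66 and 95.8% ± 2.16 (SD, n = 3 each) differed by less than the spread (exact two-sided permutation p = 0.9). For miR-129, the 5p share was 31.4%, 29.9% and 23.3% in WT, and 30.2%, 46.4% and 20.6% in Tau tg. The library of Tau tg 2 stood above all other libraries and Tau tg 3 below them, and the exact permutation p was 0.8. With 3 libraries against 3, this test cannot go below 0.1.

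The 3p arms differ between the loci, so the 3p reads can be split by locus. Mir138-1 gave 64.2%, 64.2% and 57.8% of the miR-138 3p reads in WT 1 to WT 3, and 65.3%, 53.3% and 35.2% in Tau tg 1 to Tau tg 3. Tau tg 1 was the highest library and Tau tg 2 and Tau tg 3 were below every WT library. The means were 62.1% ± 3.70 and 51.3% ± 15.1 (SD, n = 3 each, exact permutation p = 0.4). The difference of -10.8 percentage points was -2.75 without Tau tg 3, -17.8 without Tau tg 1 (exact permutation p = 0.1) and -19.1 over sequences averaging 10 RPM or more (exact permutation p = 0.1). Mir129-1 gave 32.2%, 41.0% and 20.4% of the miR-129 3p reads in WT, and 40.2%, 21.3% and 31.6% in Tau tg, so that Mir129-2 led in every library (exact permutation p = 0.9). After adjustment over these 4 shares all p were 0.9. The 95% Wilson intervals of the shares reached at most 5.73 percentage points to either side, for the Mir138-1 share, and cover counting error only, since PCR reads are not independent molecules.

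**Figure D3:**
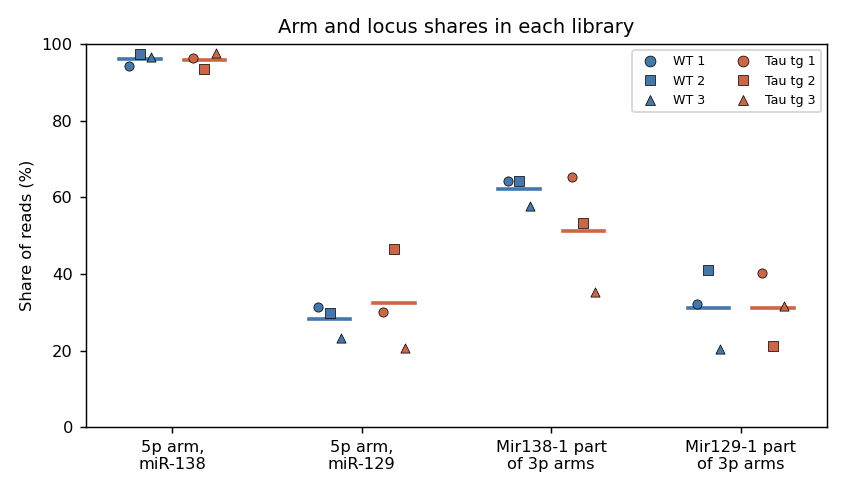
Share of reads in percent for the 5p arm of miR-138 and miR-129 and for locus 1 among the 3p arms, with 1 point for each library and a bar at the group mean. The groups overlap in all 4 shares, and Tau tg 2 stands apart for the miR-129 5p arm at 46.4%.

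The assignment of 3p reads to the Mir129 loci rests on 1 base. Reads of miR-129 3p that end before position 20 fit both hairpins, and the 3 unique sequences of this kind were all given to miR-129-1-3p in the deposited table. They made up 2.38% to 8.29% of its reads, which could have come from either locus. The read that ends in u at position 20 held a further 7.63%, and there an added u cannot be told apart from the template.

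The 3′ ends of some miR-138-5p reads also tell the loci apart, because the base after the 23-nt mature form is u in Mir138-1 and a in Mir138-2 (see the hairpins above). Reads that fit only Mir138-1 (12 unique sequences) held 8.33% to 17.3% of miR-138-5p, those that fit only Mir138-2 (5 unique sequences) 2.60% to 7.30%, and those that fit both hairpins 63.6% to 76.9%. Of the reads that fit only 1 hairpin, Mir138-1 held 53.3%, 77.6% and 77.1% in WT 1 to WT 3, and 77.02%, 66.6% and 76.3% in Tau tg 1 to Tau tg 3. Mir138-1 thus led in every library by this measure, whereas by the 3p arms Mir138-2 led in Tau tg 3. A final u or a can also be added after processing, and such a tail cannot be told apart from the template here.

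A 6mer seed, read positions 2 to 7, carries a 6mer seed viability in the deposited table. It gives the viability, in percent, of murine cells transfected with a short RNA of that seed, as the mean of 3 cell lines, and toxic seeds have low values. The 7 forms covered most of this scale. miR-129-1-3p and miR-129-2-3p had the lowest value of the 7, 23.7% (seed AGCCCU), and 10.3% of the 689 miRNAs had a leading seed below it. miR-138-5p followed at 34.5% (GCUGGU), miR-137-3p at 51.3% (UAUUGC), miR-138-2-3p at 74.4% (CUAUUU), miR-138-1-3p at 80.0% (CUACUU) and miR-129-5p at 84.4% (UUUUUG).

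The arms of 1 hairpin therefore differed widely. In miR-129 the less abundant 5p arm carried the nontoxic seed and the 3p arms the toxic one, while in miR-138 the abundant 5p arm carried the more toxic seed and both 3p arms nontoxic ones. The abundance-weighted mean viability of the miR-129 family followed its 5p share, at 42.9%, 41.8% and 38.1% in WT 1 to WT 3 and 42.3%, 52.1% and 36.3% in Tau tg 1 to Tau tg 3. For miR-138 it ranged from 35.9% to 37.4% over the 6 libraries and for miR-137-3p from 54.2% to 56.1%. Of all reads with the seed GCUGGU, miR-138-5p held 98.5%, and the miR-129 3p forms held 29.6% (miR-129-1-3p) and 68.4% (miR-129-2-3p) of those with AGCCCU. For these seeds the RISC content was thus nearly the content of 1 miRNA family.

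**Figure D4:**
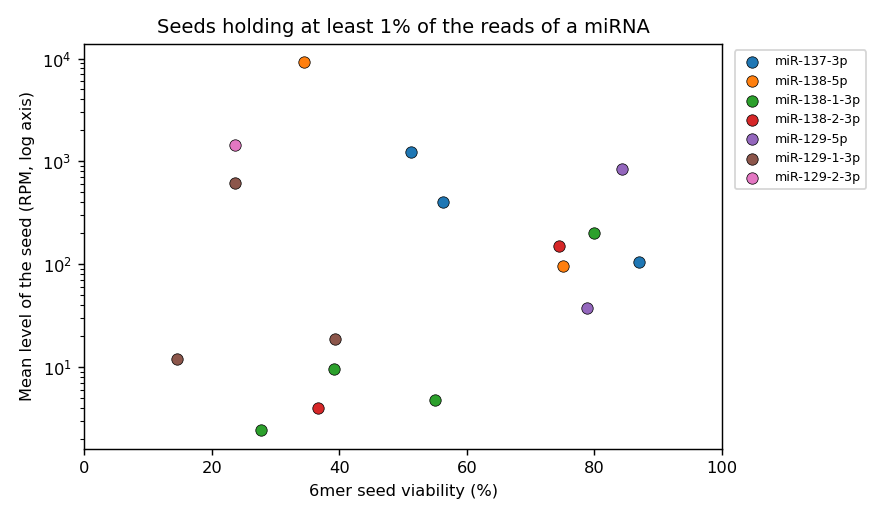
Mean level over the 6 libraries (RPM, log axis) against 6mer seed viability in percent, for each seed that held at least 1% of the reads of 1 of the 7 forms. miR-138-5p stands highest at a viability of 34.5%, and the miR-137-3p seeds spread from 51.3% to 87.0%.

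miR-137-3p was the form with the most varied 5′ end. Outside its leading seed lay 30.2% of its reads, rank 29 of the 276 miRNAs with a mean of at least 100 RPM, whose median was 4.17%. The other 6 forms were at 2.15% (miR-129-2-3p) to 7.73% (miR-138-1-3p). Reads starting at the RefSeq 5′ end (seed UAUUGC) held 69.8% of miR-137-3p, reads starting 1 nt later (AUUGCU, viability 56.3%) 22.8%, and reads starting 2 nt later (UUGCUU, viability 87.0%) 6.02%. The reads are set one below the other to show the shifted seed and the varied 3′ end, each with seed bases 2 to 8 in capitals.
Most abundant read, 30.1% of miR-137-3p: uUAUUGCUuaagaauacgcgu
Next, 22.5%: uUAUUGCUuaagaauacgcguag
Next, 10.1%: uUAUUGCUuaagaauacgcgua
Next and shifted by 1 nt, 9.80%: uAUUGCUUaagaauacgcguag
The full-length RefSeq form was thus second to a form that lacks its last 2 bases.

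The start with seed AUUGCU held 19.2% (Tau tg 1) to 28.0% (WT 2) of miR-137-3p. The start with seed UUGCUU held 4.08% (WT 2) to 9.35% (WT 1). Reads outside the RefSeq seed made up 33.7%, 32.2% and 26.8% in WT 1 to WT 3 and 29.0%, 29.9% and 29.6% in Tau tg 1 to Tau tg 3 (exact permutation p = 0.5). The most abundant read varied more, at 366, 268 and 549 RPM in WT and 838, 427 and 744 RPM in Tau tg. It was highest in Tau tg 1 and Tau tg 3, but WT 3 exceeded Tau tg 2 (log2 fold change 0.76, SE 0.51, limma adjusted p = 0.584). Its share of miR-137-3p was 23.3%, 14.7% and 38.8% in WT and 38.7%, 34.6% and 30.9% in Tau tg (exact permutation p = 0.4).

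The miR-138-1-3p of these brains started 2 nt downstream of the RefSeq 5′ end. The shift replaced the annotated 6mer seed GGCUAC, with a viability of 39.1%, by CUACUU, with a viability of 80.0%, which led in all 6 libraries and held 92.3% of the reads. The forms are aligned by their names below, with seed bases 2 to 8 in capitals.
RefSeq form: cGGCUACUucacaacaccaggg
Most abundant read, 39.99% of miR-138-1-3p: gCUACUUCacaacaccagggc
Next, 28.6%: gCUACUUCacaacaccaggg
miR-138-2-3p, by contrast, started at its RefSeq 5′ end in most reads (seed CUAUUU, 96.0%), so that the 3p arms of both loci began at the corresponding base. Of the rarer seeds of miR-138-1-3p, UACUUC (viability 55.0%) held 2.20% and GCUACU (viability 27.7%) held 1.12%, the latter mostly in WT 3, where it was 7.98%. A further seed of miR-138-2-3p, 1 nt later (UAUUUC, viability 36.7%), held 2.54%.

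Reads of miR-138-1-3p that did start at the RefSeq end were 0 of 735, 0 of 262 and 1 of 163 in WT 1 to WT 3, and 130 of 2155, 45 of 290 and 2 of 221 in Tau tg 1 to Tau tg 3. A count of 0 allows a share of up to 0.408% in WT 1 and 1.15% in WT 2 by 3 reads of the total, or 0.520% and 1.45% by the Wilson interval, and rare sequences had been removed from the table. The shares of the other 4 libraries were 0.613% (WT 3), 6.03% (Tau tg 1), 15.5% (Tau tg 2) and 0.905% (Tau tg 3). This was the single measure among 21 isoform shares, 4.76%, in which the groups did not overlap, and its exact permutation p of 0.1 is the smallest that 3 against 3 can give (adjusted over 21 shares, 0.995). The separation between WT 3 and Tau tg 3 rests on 1 read against 2 reads, whose 95% Wilson intervals (0.108% to 3.39% and 0.249% to 3.24%) overlap. The difference of -7.28 percentage points in reads off the RefSeq end was -3.26 without Tau tg 2, and it was 0 over sequences averaging 10 RPM or more, a filter that no sequence with the RefSeq seed passed.

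**Figure D5:**
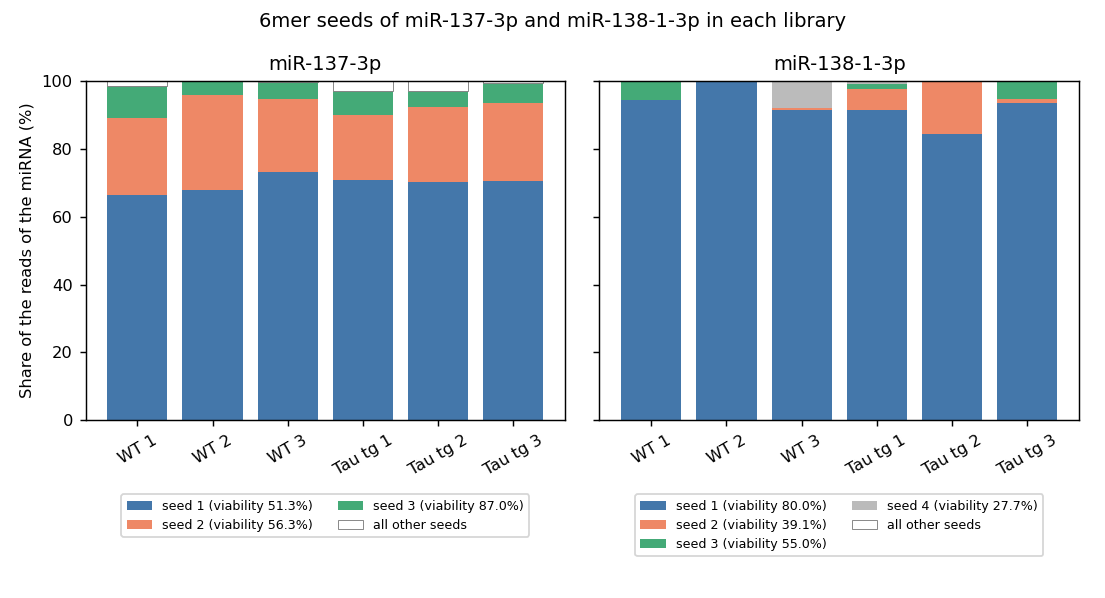
Share of the reads of miR-137-3p (left) and miR-138-1-3p (right) held by each 6mer seed of at least 1%, in percent, for each library, with the viability of each seed. The leading seed holds 66.3% to 73.2% of miR-137-3p and 84.5% to 100% of miR-138-1-3p, and the RefSeq seed of miR-138-1-3p (viability 39.1%) is visible in Tau tg 1 and Tau tg 2.

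The remaining forms had nearly uniform 5′ ends. miR-138-5p kept its seed in 97.6% of reads, and a start 1 nt later (CUGGUG, viability 75.1%) held 1.03%. In miR-129-5p, UUUUUG held 95.1% and UUUUGC, 1 nt later and with a viability of 78.8%, held 4.21%. In miR-129-1-3p, starts 1 and 2 nt earlier gave the seeds AAGCCC (viability 39.3%, 2.86% of reads) and GAAGCC (viability 14.6%, 1.85%). Reads outside the leading seed were between 0% and 10.5% in every library for these forms and miR-138-2-3p, and the groups overlapped for each.

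The most abundant form, miR-138-5p, had 214 unique sequences above 0. Its reads had a main length of 23 nt (41.0% of reads), and 22 nt (6.88%) was rarer than either 21 nt (14.3%) or 23 nt in every library. The leading reads are shown to make this ladder visible.
23 nt, 37.4% of miR-138-5p: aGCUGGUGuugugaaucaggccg
20 nt, 13.0%: aGCUGGUGuugugaaucagg
21 nt, 12.3%: aGCUGGUGuugugaaucaggc
24 nt, 8.72%: aGCUGGUGuugugaaucaggccgu
The 23-nt read measured 3055, 4336 and 2976 RPM in WT 1 to WT 3 and 4236, 2649 and 3814 RPM in Tau tg 1 to Tau tg 3, with overlapping groups (log2 fold change 0.04, SE 0.38, limma adjusted p = 0.954). The 24-nt read, which fits Mir138-1 only, measured 568, 932 and 527 RPM in WT and 680, 811 and 1396 RPM in Tau tg, again with overlap (log2 fold change 0.49, limma adjusted p = 0.584). Mean read lengths were 22.3 ± 0.0396 nt in WT and 22.4 ± 0.359 nt in Tau tg (SD, n = 3 each, exact permutation p = 0.6).

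The miR-129 forms each had 1 dominant read. The 21-nt read of miR-129-5p held 74.2% of that form, at 641, 659 and 560 RPM in WT 1 to WT 3 and 574, 1035 and 506 RPM in Tau tg 1 to Tau tg 3. Tau tg 2 was the highest and Tau tg 3 the lowest, as for the whole form. The 22-nt reads held 70.9% of miR-129-1-3p and 69.9% of miR-129-2-3p, both ending in au. In miR-138-2-3p no read led clearly, with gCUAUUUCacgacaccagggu at 31.4% and gCUAUUUCacgacaccaggguu at 30.6%. The latter measured 34.7, 34.6 and 13.8 RPM in WT and 42.5, 117 and 45.0 RPM in Tau tg, without overlap, with a log2 fold change of 1.22 (SE 0.76, limma adjusted p = 0.584).

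Reads that matched the hairpin without a mismatch made up 96.5% of miR-129-2-3p, 94.1% of miR-129-1-3p, 91.4% of miR-137-3p, 90.3% of miR-129-5p, 87.9% of miR-138-5p, 77.9% of miR-138-1-3p and 66.9% of miR-138-2-3p. Most of the rest differed from the hairpin only in their last 1 to 3 bases. Such 3′ tails were most frequent and most variable in miR-138-2-3p, at 50.2%, 19.9% and 52.9% of reads in WT 1 to WT 3 and 27.3%, 20.1% and 17.7% in Tau tg 1 to Tau tg 3. WT 2 lay among the Tau tg libraries, so the groups overlapped. In miR-138-5p tails were held between 10.3% and 12.6% in all libraries.

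Of the 257 sequences of these forms tested one by one, 11 (4.28%) passed an unadjusted p under 0.05 in limma, beside 2.23% of all 36070 sequences, and 9 of the 257 (3.50%) passed and were higher in Tau tg, beside 1.44% of all sequences. Of the called sequences, 9 of 11 here and 64.6% of all 803 were higher in Tau tg. None passed after adjustment (limma adjusted p = 0.584 for each), beside 0.0277% of all sequences. The 11 were minor reads, with means of 5.30 to 58.7 RPM and 0.0565% to 6.73% of their form, and 8 of them carried a 3′ tail, as did 120 of the 257 tested. Only 4 of the 11 were above 0 in all libraries, in a table from which rare reads had been removed. A tailed read of miR-138-5p and the exact RefSeq sequence of miR-138-1-3p were at 0 in every WT library. They passed the filter on the mean through Tau tg alone. Without overlap between groups were 10 of 91 sequences above 0 in all libraries (10.99%), beside 9.31% of all such sequences.

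The 11 reads came from miR-138-5p (6), miR-138-1-3p (3), miR-138-2-3p (1) and miR-137-3p (1). The most abundant was an 18-nt read of miR-138-5p, aGCUGGUGuugugaauca, at 56.7, 2.71 and 38.5 RPM in WT 1 to WT 3 and 87.1, 52.7 and 115 RPM in Tau tg 1 to Tau tg 3. WT 2 was far below all others and WT 1 lay above Tau tg 2, so the groups overlapped (log2 fold change 2.005, SE 0.76, limma unadjusted p = 0.00862). A read of miR-137-3p that ends in u in place of the last g, uUAUUGCUuaagaauacgcguau, measured 7.96, 0.678 and 0.917 RPM in WT and 24.9, 21.7 and 16.0 RPM in Tau tg. Every Tau tg library was above every WT library for this read (log2 fold change 2.81, SE 1.03, limma unadjusted p = 0.00632). These reads, and the RefSeq form of miR-138-1-3p, which was also among the 11, were singled out after their values were seen. The share of 4.28% was above that of all sequences in limma, but some other tests of the same question gave a share below it. edgeR on the recovered reads called 2 of 257 (0.778%) beside 7.11% of all sequences, DESeq2 called 5 (1.95%) beside 9.27%, and limma on sequences averaging 10 RPM or more called 1 of 74 (1.35%) beside 4.28%. Leaving out Tau tg 1 gave 7 of 257 (2.72%) beside 1.98% of all sequences. Leaving out Tau tg 2 also gave 7 (2.72%), beside 1.23%, so in these fits the share stayed above that of all sequences.

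Other synaptic or neuron-enriched miRNAs also held none that passed in limma, though the groups were free of overlap in 2 of them. Of 14 listed miRNAs, 14 were found and 0 passed an unadjusted p under 0.05 in limma, beside 3.63% of all miRNAs, with 7 above 0, 7 below 0 and a median log2 fold change of 0.03. The lowest p was that of miR-134-5p, a repressor of dendritic spine growth like miR-138-5p, at 139, 232 and 51.4 RPM in WT 1 to WT 3 and 186, 273 and 286 RPM in Tau tg 1 to Tau tg 3. WT 2 lay above Tau tg 1 (log2 fold change 1.04, SE 0.54, limma adjusted p = 0.896). In 2 of the 14 the groups did not overlap, beside 9.53% of all miRNAs above 0 in every library. One was miR-9-5p, a neural progenitor and neuronal miRNA, at 29427 to 37677 RPM in WT and 44565 to 48005 RPM in Tau tg (log2 fold change 0.53, SE 0.32, limma adjusted p = 0.896). The other was miR-188-5p, at 46.8 to 77.9 RPM in WT and 88.8 to 116 RPM in Tau tg (log2 fold change 0.80, SE 0.56, limma adjusted p = 0.896). miR-218-5p, whose pattern was the closest to that of miR-138-2-3p, had a log2 fold change of 0.37 (limma adjusted p = 0.896), beside 0.49 for miR-138-2-3p.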

How the data were processed

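Ago-bound short RNAs of 3 WT and 3 Tau tg mouse brains were gel-selected and sequenced on an Illumina HiSeq instrument, and groups were taken from the sample titles. The authors made the table with the SPOROS pipeline (trimming with Trim Galore per the submitters' processing notes), removed rare and artificial reads and deposited RPM values for each unique sequence, scaled to library size. The authors' viability column, a deposited score in percent, was used as given. Values were whole multiples of what 1 read is worth, and 100% came out whole within 0.001 RPM, so reads were recovered. Since rare reads had been removed, low values are incomplete, and 3 reads corresponded to 0.427 to 2.75 RPM. Forms, lists and tests were chosen with earlier results of these data known.

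Reads were summed per miRNA name. Rows that reached 1 RPM on average, for miRNAs and for unique sequences, were tested on log2(RPM + 1) in limma 3.58.1 (R 4.3.3) with its mean-variance trend over all 6 samples and Benjamini-Hochberg adjustment over all rows. Shares were compared by exact permutation (two-sided, 20 assignments). Sequences were matched to RefSeq hairpins (GRCm38.p6), with host genes from GENCODE M21 of the same build. Named reads were the most abundant of each form and up to 3 others of at least 1%, reads with a shifted 5′ end above 1%, and the 3 miRNAs closest in pattern. Samples are separate mice per the study's methods. In simulated data limma called 100% of 200 miRNAs changed 8-fold at a dispersion of 0.1. Smaller changes were not simulated. This recovery therefore cannot show whether limma would detect changes as small as those estimated for the forms, 0.88-fold (miR-129-1-3p) to 1.40-fold (miR-138-2-3p). Alternatives were count tests on the recovered reads (DESeq2 1.42.0, edgeR 4.0.16), other scalings, pseudocounts (0.1 and 5) and filters, a replicate block and leaving out each library. Scripts ran in Python 3.11.15 with SciPy 1.17.1, pandas 2.3.3, Matplotlib 3.10.9 and NumPy 2.4.6.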

Additional observations from a re-analysis of the deposited data

How the results depend on the processing

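In every alternative 0 of the 7 forms passed after adjustment. At an unadjusted p under 0.05, leaving out 1 library gave 0 to 1 of the 7, miR-138-2-3p without WT 1 (0.78) and miR-137-3p without Tau tg 2 (0.52), and the other alternatives gave 0. Their log2 fold changes kept their sign under the 12 alternatives other than leaving out a library for 5 forms. Exceptions were miR-138-5p, at -0.0263 under median-of-ratios scaling and -0.0015 with DESeq2, and miR-129-5p, at -0.11 under median-of-ratios scaling, -0.0158 with edgeR, -0.0489 with DESeq2 and -0.0513 with scaling to miRNA reads only. The cause was not tested. Leaving out 1 library gave 0.0341 to 0.52 for miR-137-3p, 0.30 to 0.78 for miR-138-2-3p, -0.0280 to 0.41 for miR-138-5p, -0.49 to 0.38 for miR-138-1-3p, -0.20 to 0.22 for miR-129-5p, -0.46 to 0.26 for miR-129-1-3p and -0.42 to 0.0775 for miR-129-2-3p. Of the sequences of these forms, 11 passed an unadjusted p under 0.05, against 1 of 74 with a mean of at least 10 RPM, where fewer were tested, 2 with edgeR, 5 with DESeq2 and 7 to 16 when 1 library was left out. The miRNAs called at an unadjusted p under 0.05 rose from 25 to 58 without WT 1 and 40 without Tau tg 2, and DESeq2 called 5 after adjustment. Sequences called at an unadjusted p under 0.05 were 803, against 429 with a pseudocount of 5, 167 with a mean of at least 10 RPM, 2564 with edgeR and 3344 with DESeq2, and 444 without Tau tg 2. After adjustment they were 10, against 0 to 22 in the other limma fits, 49 with edgeR and 459 with DESeq2. Between samples of equal replicate number, correlations of deviations over 276 miRNAs were 0.16, -0.14 and 0.17, against -0.30 to 0.13 between unlike numbers. Deviations from means of 3 libraries are tied to each other, so these values cannot settle whether samples were paired. With the replicate block 22 miRNAs, 0 of the 7 forms and 11 of their sequences passed an unadjusted p under 0.05, and 22 of all sequences passed after adjustment. Against the pooled SD within groups, the 4 arm and locus shares moved by less than 1 SD in 32 of 32 alternative values and the 21 isoform shares in 187 of 189. The exceptions, both over sequences averaging 10 RPM or more, were miR-138-1-3p reads off the RefSeq end, from a difference of -7.28 percentage points to 0 since the filter left no read at that end, and the mean length of miR-138-1-3p, from 0.385 to 0.0464 nt. The Mir138-1 share of 3p reads stayed within this SD but ranged from -2.75 to -19.1 percentage points. Depth limits the rare reads, since 3 reads were worth up to 2.75 RPM.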
